A study of Rattus norvegicus with 16 samples.

Results

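The genes that encode receptors for the transmitters GABA and glutamate were followed in 2 cell populations of the rat carotid body, in ambient air and after 3 days of hypoxia. They were the genes whose symbol in the array annotation names a GABA-A, GABA-B, AMPA, kainate, NMDA or metabotropic glutamate receptor subunit and that had a probe naming that gene alone. A total of 38 of the 18166 genes with such a probe met this rule, each with 1 probe. There were 16 GABA-A and 2 GABA-B genes, 2 AMPA, 5 kainate and 7 NMDA genes, 5 metabotropic glutamate genes, and Grid2ip, which the symbol rule also takes in but which encodes a scaffold of a delta receptor, so that 37 members are receptor subunits. A further 10 protein-coding genes of these families in the RefSeq rat annotation are not analysed here.

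The carotid body lies where the carotid artery divides and senses blood oxygen. Its glomus cells are chemoreceptor cells that release transmitters onto the carotid sinus nerve, and its neuroblasts are less mature cells that stem, like them, from the neural crest. All samples came from Wistar rats of 9 to 11 weeks, with no genetic change named in the labels, and the carotid bodies of both sides were pooled. After dispersal the cells were stained for HNK-1, a sulfated carbohydrate of neural cell surfaces, and sorted. Those with the stain were taken as neuroblasts and those without it as glomus cells, so that each population is defined by this stain alone. The 4 groups of 4 arrays were normoxic glomus cells, normoxic neuroblasts, hypoxic glomus cells and hypoxic neuroblasts. The rats of the normoxic groups were kept in ambient air, and those of the hypoxic groups were in hypoxic chambers for 3 days, with the oxygen level not given in the sources used here. Labelled cDNA from 500 pg of total RNA per sample was hybridised to an Affymetrix rat gene array.

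GABA acts on GABA-A receptors, chloride channels of several subunits, and on GABA-B receptors, which couple to G proteins and in turn to potassium and calcium channels. In mature neurons GABA-A receptors are mostly inhibitory, whereas in immature neurons, which hold more chloride, their opening can depolarise the cell. Glutamate acts on the cation channels of the AMPA, kainate and NMDA families and on metabotropic receptors, which couple to G proteins. GABA-B receptors have been described on glomus cells, where they dampen the response to hypoxia.

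The median over all probes was 4.40 to 4.64 (log2) on the 8 normoxic arrays and 4.71 to 4.94 on the 8 hypoxic arrays. The median hypoxia difference over all probes was 0.17 in glomus cells and 0.25 in neuroblasts, against which the differences of single genes are read. Across probes, hypoxic neuroblast replicate 1 correlated with the rest of its group at 0.914 on average, the lowest value of the 16 arrays (the next was 0.949), and the calls of receptor genes that were lost without it are named with those genes. All 10 glomus cell markers examined (among them Th and Chga) lay above the array median in every group. Of 12 neuroblast and immature neuron markers (among them B3gat1, Dcx and Stmn2), 8 were higher in normoxic neuroblasts than in normoxic glomus cells. After hypoxia, none of these 12 or of the 10 glomus cell markers passed between the populations in limma's test, against 0.283% of probes. Of the 12 and the 10, 4 and 6 had an unadjusted p under 0.05, with median differences of 0.515 and -0.48. The labels name no date or batch, so that batch and oxygen condition cannot be told apart, and they leave unsaid whether each sample is another animal, so that p-values measure only how far these samples spread. In sorted bulk samples, fewer cells of a type and less RNA per cell cannot be told apart.

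Most of the receptor genes gave a dim signal. In normoxia, 26.3 ± 2.15% of the 38 genes lay above the array median in glomus cells and 26.3 ± 3.72% in neuroblasts (SD, n = 4). In hypoxia the shares were 23.7 ± 0% and 27.6 ± 5.48%. This was 8 to 13 genes per array. Over all genes with a single-gene probe the share was 60.3%, 59.9%, 59.6% and 59.0% in the same order, above that of the receptor genes on every array. The 4 group means of the receptor genes lay closer together than the SD of the hypoxic neuroblast arrays. Against the median of 1 probe per gene, which leaves out probes without a gene name, the shares were 14.5%, 17.8%, 15.1% and 20.4%.

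**Figure D1:**
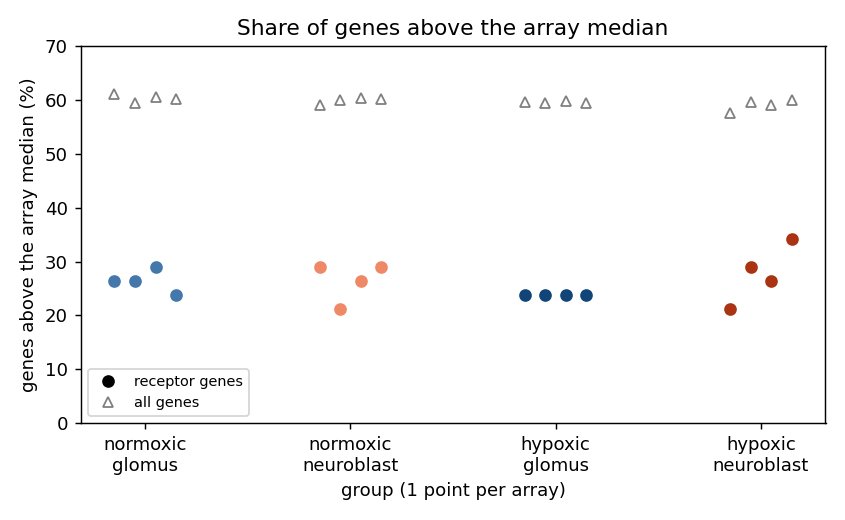
The vertical axis gives the percent of genes above the median of all probes on an array, with 1 point per array, for the 38 receptor genes (filled circles) and all genes with a single-gene probe (open grey triangles). The receptor genes lie between 21.1% and 34.2% on the 16 arrays, and the triangles lie near 60% throughout.

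A total of 4 genes lay above the median on all 16 arrays: Gabbr1 and Gabbr2, the subunits of the GABA-B receptor, Grik5, an auxiliary-type kainate subunit that needs a partner to form channels, and Grin2c, an NMDA subunit best known from the cerebellum. Gabrd and Grin1 did so on 15 arrays, Grik3 on 13, Grik2 on 12 and Gabre on 11. A total of 18 genes lay above it on no array, among them all 5 metabotropic glutamate genes (Grm2, Grm3, Grm5, Grm6 and Grm8), the AMPA gene Gria4 and the kainate genes Grik1 and Grik4. A probe's signal depends on its sequence as well as on the transcript, so that these positions place probes, not transcripts, and a dim probe does not show that a gene is silent. The map of levels shows these positions by family and group.

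**Figure D2:**
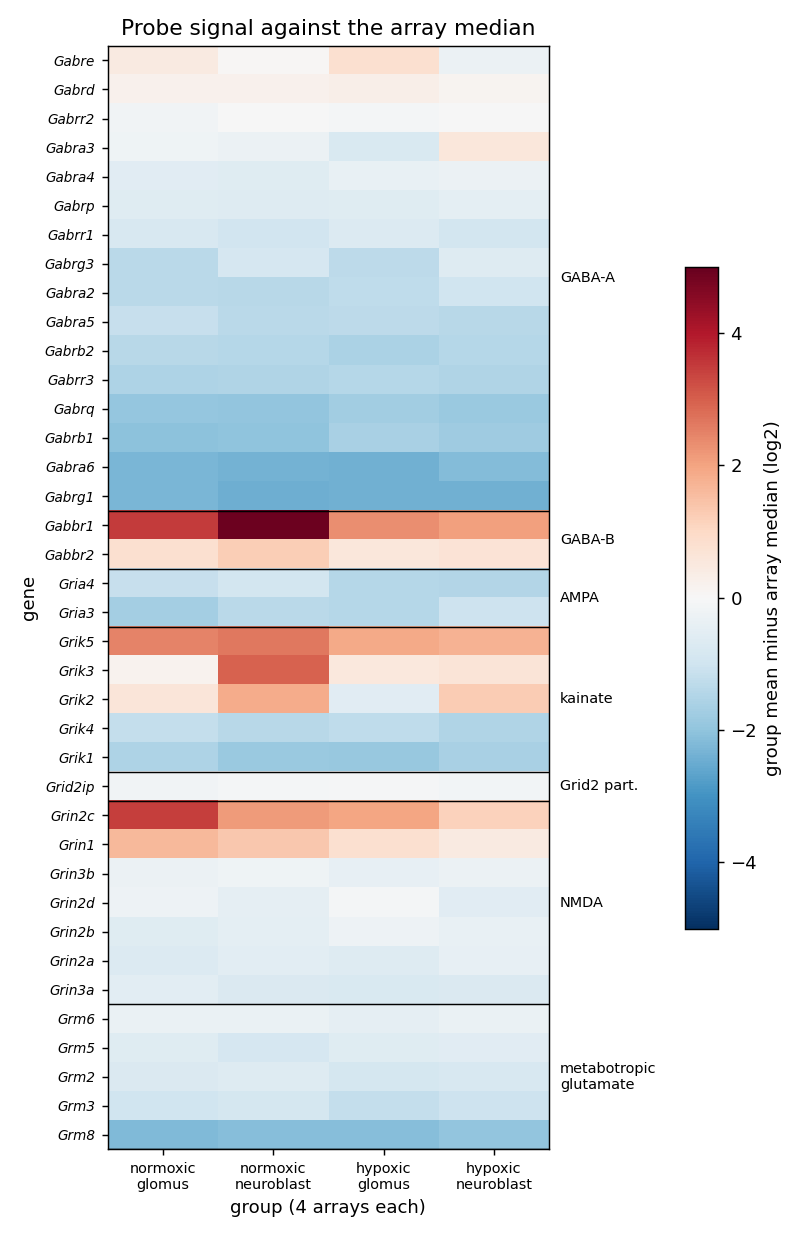
Each row is 1 of the 38 genes, grouped by receptor family, each column is 1 of the 4 groups, and the colour gives the mean log2 signal minus the array median (n = 4). The largest value is that of Gabbr1 in normoxic neuroblasts, and most GABA-A, AMPA and metabotropic genes are below 0 in all groups.

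Normoxic neuroblasts and glomus cells differed in 3 of the 38 receptor genes. Gabbr1, which carries the GABA-binding site of the GABA-B receptor, and Grik3, a kainate receptor subunit, were higher in neuroblasts, and Grin2c was lower. These are 7.89% of the receptor genes, against 1.82% of all 30429 probes, at an adjusted p under 0.05 (limma, Benjamini-Hochberg over all probes). In each direction the background was 0.996% of probes higher and 0.828% lower in neuroblasts. The median difference over the 38 genes was -0.00, and over all probes it was -0.01. The 4 values of one population all lay above the 4 of the other for 4 genes, these 3 and Grik2, against 7.39% of probes. All 3 calls stood under each alternative scaling, filter and variance model, at the stricter p and fold thresholds, and with any 1 array left out.

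After 3 days of hypoxia, 1 receptor gene separated the populations: Grik2, a kainate subunit, was higher in neuroblasts. This is 2.63% of the receptor genes, against 0.283% of probes called and 0.138% called higher. The median difference over the 38 genes was 0.13, and over all probes it was 0.04. Gabbr1, Grik3 and Grin2c did not pass in this comparison. The values did not overlap for 2 genes, Grik2 and Gabre, against 4.48% of probes. The call of Grik2 was lost with arrays centred on their medians (adjusted p = 0.0769), with array weights (adjusted p = 0.0794), with only the hypoxic arrays in the fit (adjusted p = 0.211) and in 11 of the 16 fits that left out 1 array, while Gabre also passed, lower in neuroblasts, after quantile normalization.

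In glomus cells, 3 days of hypoxia lowered 2 receptor genes, Gabbr1 and Grin2c, and raised none. This is 5.26% of the receptor genes, against 18.9% of probes (9.37% rose and 9.5% fell). Over the 38 genes the median difference was 0.17, equal to that over all probes, and over all genes with a single-gene probe it was 0.13. A positive difference was found in 28 genes and a negative one in 10, and after centring on the array medians these counts were 18 and 19. The values of the oxygen conditions did not overlap for 6 genes, 5 higher and 1 lower in hypoxia, against 26.4% of probes. The count depended on the model: it was 9 with array weights (6 rises and 3 falls), 5 with only the glomus cell arrays in the fit (3 rises and 2 falls), and 1 after quantile normalization, without normoxic glomus cell replicate 3, at an adjusted p under 0.01 or at a difference of at least 1. It was 5 without normoxic glomus cell replicate 1 and 4 without hypoxic neuroblast replicate 1 or 2.

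In neuroblasts, 7 receptor genes passed. Hypoxia lowered Gabbr1, Grik3, Grik5 and Grin2c and raised Gabra4, Gabrp and Grm5. This is 18.4% of the receptor genes, against 32.1% of probes (18.4% of probes rose and 13.7% fell). The median difference over the 38 genes was 0.28, over all probes it was 0.25, and over all genes with a single-gene probe it was 0.19. The falls and the rises did not stand alike under other scalings. With arrays centred on their medians, no receptor gene rose and 5 fell (Gabbr1, Gria4, Grik3, Grik5 and Grin2c), against 6% and 18% of probes. After quantile normalization none rose and 3 fell (Gabbr1, Gria4 and Grik3), against 10.8% and 12.2% of probes. The values did not overlap for 9 genes, 5 higher and 4 lower in hypoxia, against 28% of probes. The count was 4 without normoxic neuroblast replicate 3, 10 without hypoxic neuroblast replicate 2 or 4, and 5 without hypoxic neuroblast replicate 1, which then lacked Gabra4 and Gabrp.

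Whether the response to hypoxia differed between the populations was tested as an interaction, in which the glomus cell difference was subtracted from the neuroblast difference. No receptor gene passed in limma's test, against 0.0789% of probes, and 4 of the 38 had an unadjusted p under 0.05. The nearest was Grik3 (adjusted p = 0.0578). It passed with array weights, with the dimmest 25% or the dimmer 50% of probes left out, and without normoxic neuroblast replicate 2 or hypoxic glomus cell replicate 3. On simulated data the interaction test recovered 9% of changes of 1 (log2) and 71% of changes of 2. A missing call therefore does not show that the responses were equal.

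**Figure D3:**
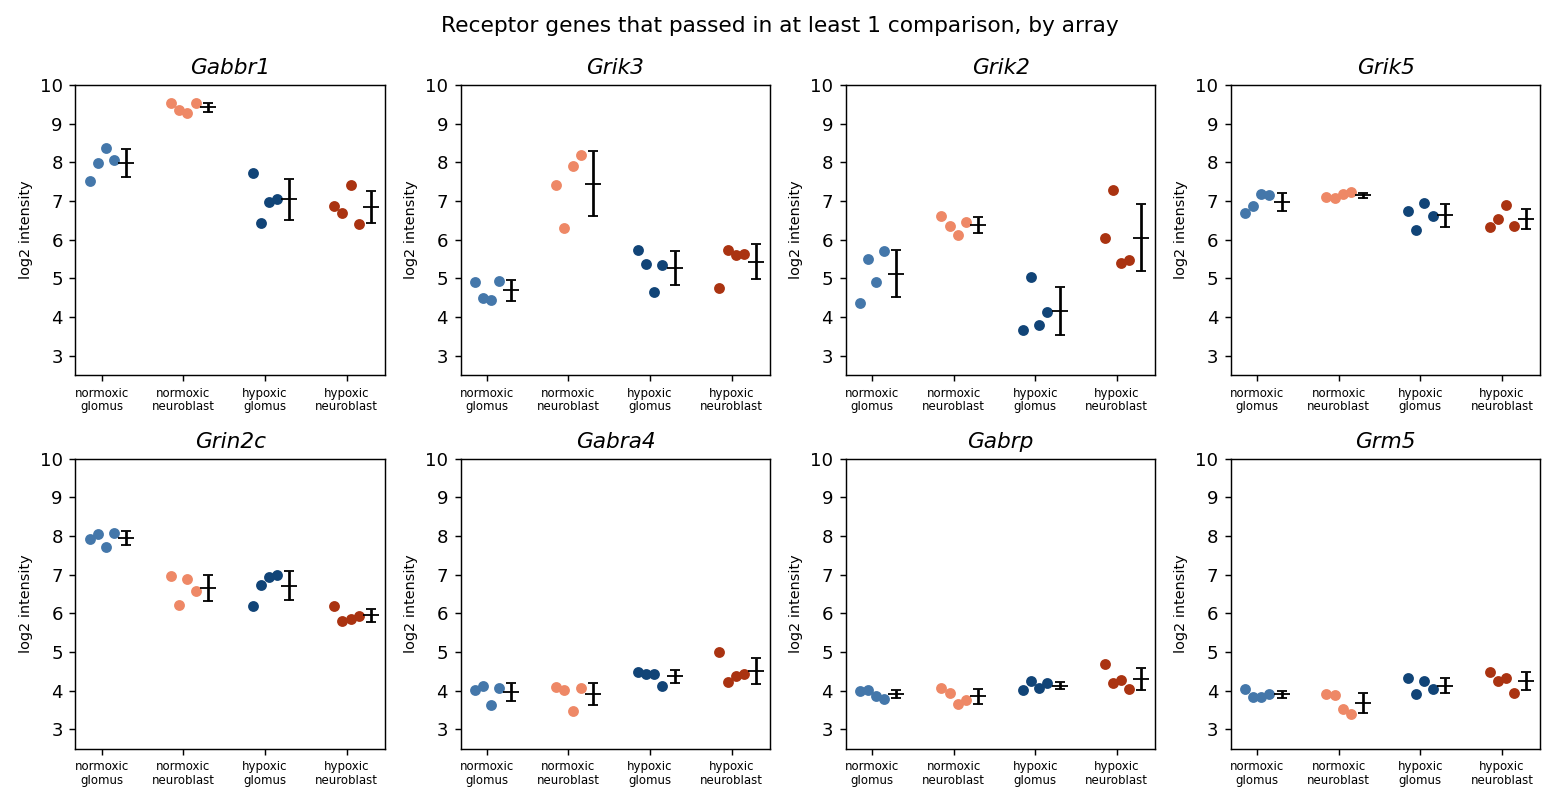
Log2 signal on each of the 16 arrays for the 8 genes that passed in any comparison, with 1 panel per gene, 1 column of points per group and the mean ± SD beside it (n = 4). Gabbr1 and Grik3 are highest on the 4 normoxic neuroblast arrays, Grin2c is highest on the 4 normoxic glomus cell arrays, and Gabra4, Gabrp and Grm5 stay between 3.40 and 4.99.

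Of the GABA-B receptor, Gabbr1 encodes the subunit that binds GABA and Gabbr2 the partner that brings the receptor to the surface and couples to the G protein. Gabbr1 measured 7.51, 7.99, 8.38 and 8.07 in normoxic glomus cells and 9.53, 9.35, 9.28 and 9.52 in normoxic neuroblasts, in replicates 1 to 4. After hypoxia it measured 7.72, 6.43, 6.98 and 7.04 in glomus cells and 6.86, 6.70, 7.40 and 6.40 in neuroblasts. The 4 normoxic neuroblast values lay above all other 12, and hypoxic glomus cell replicate 1 lay above normoxic replicate 1, so that the glomus cell groups overlapped.

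The fall with hypoxia was 2.58 ± 0.26 in neuroblasts (5.98-fold, adjusted p = 2.4e-06) and 0.95 ± 0.26 in glomus cells (1.93-fold, adjusted p = 0.0156), and the difference between these falls did not pass (-1.64 ± 0.36, adjusted p = 0.121). The population difference of 1.43 ± 0.26 in normoxia was followed by one of -0.20 in hypoxia, with a 95% interval of -0.75 to 0.34 (adjusted p = 0.793). The glomus cell fall lost its call after quantile normalization (-0.79, adjusted p = 0.055), without normoxic glomus cell replicate 3 (-0.81, adjusted p = 0.0628) and without hypoxic glomus cell replicate 2 (-0.74, adjusted p = 0.0589). Gabbr2 measured 5.33, 4.99, 5.56 and 5.40 in normoxic glomus cells, 5.39, 5.10, 6.40 and 6.05 in normoxic neuroblasts and, after hypoxia, 5.07, 5.73, 5.29 and 5.02 in glomus cells and 5.50, 5.08, 5.56 and 5.76 in neuroblasts. Its 4 groups overlapped, and it passed in no comparison. Its hypoxia difference was -0.04 in glomus cells (95% interval -0.59 to 0.50) and -0.26 in neuroblasts (-0.80 to 0.28).

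The kainate family held the receptor gene with the largest population difference in normoxia, Grik3, and the one that passed between the hypoxic populations, Grik2. Grik3 measured 4.90, 4.48, 4.44 and 4.94 in normoxic glomus cells and 7.41, 6.29, 7.90 and 8.20 in normoxic neuroblasts. After hypoxia it measured 5.72, 5.36, 4.65 and 5.33 in glomus cells and 4.75, 5.72, 5.61 and 5.62 in neuroblasts. The 4 normoxic neuroblast values stood alone at the top, and the other 12 values shared one range. Grik3 was 2.76 ± 0.34 higher in normoxic neuroblasts than in normoxic glomus cells (6.77-fold, adjusted p = 0.000142). It fell by 2.03 ± 0.34 with hypoxia in neuroblasts (4.07-fold, adjusted p = 0.00028), and fell by 1.80 ± 0.35 without hypoxic neuroblast replicate 1, its lowest value there. In glomus cells its hypoxia difference was 0.57 ± 0.34 (adjusted p = 0.262), and in hypoxia the populations differed by 0.16 ± 0.34 (95% interval -0.56 to 0.88).

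Grik2 measured 4.36, 5.50, 4.91 and 5.71 in normoxic glomus cells and 6.62, 6.34, 6.13 and 6.45 in normoxic neuroblasts, with all neuroblast values above all glomus cell values. After hypoxia it measured 3.66, 5.03, 3.80 and 4.12 in glomus cells and 6.03, 7.29, 5.40 and 5.48 in neuroblasts, again without overlap. The population difference was 1.27 ± 0.39 in normoxia (adjusted p = 0.142) and 1.90 ± 0.39 in hypoxia (3.73-fold, adjusted p = 0.0459). The first passed with only the normoxic arrays in the fit (adjusted p = 0.0416), and the second lost its call in 11 of the 16 fits without 1 array, among them that without hypoxic neuroblast replicate 1 (1.90 ± 0.43, adjusted p = 0.0767). With hypoxia, Grik2 differed by -0.97 ± 0.39 in glomus cells (adjusted p = 0.0928) and by -0.34 ± 0.39 in neuroblasts (adjusted p = 0.5).

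Grik5 measured 6.70, 6.88, 7.19 and 7.15 in normoxic glomus cells and 7.10, 7.08, 7.18 and 7.22 in normoxic neuroblasts. After hypoxia it measured 6.74, 6.24, 6.95 and 6.60 in glomus cells and 6.33, 6.53, 6.89 and 6.34 in neuroblasts. The populations overlapped in both conditions, and the hypoxic neuroblast values all lay below the normoxic ones. It fell by 0.62 ± 0.18 in neuroblasts (1.54-fold, adjusted p = 0.0159) and differed by -0.35 ± 0.18 in glomus cells (adjusted p = 0.202), and the call in neuroblasts was lost after quantile normalization (-0.35, adjusted p = 0.15). Grik1 and Grik4, the other 2 kainate genes, passed in no comparison and had group means of 2.68 to 3.45.

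The upstream sequences of Gabbr1 and Grik3 are shown because these genes had the largest falls with hypoxia in neuroblasts. Both are from RefSeq (build GRCr8) and run 5' to 3' on the gene's strand up to the start of the annotated gene, with capitals marking GCGTG, a variant of the core of the hypoxia response element. That for Gabbr1 is chr20:1499353-1499486 on the minus strand, 134 bases, and that for Grik3 is chr5:143052192-143052441 on the plus strand, 250 bases. The start listed for Gabbr1 in the promoter table lies within the annotated gene, and the 116 bases of its window inside the gene are not printed.
Gabbr1: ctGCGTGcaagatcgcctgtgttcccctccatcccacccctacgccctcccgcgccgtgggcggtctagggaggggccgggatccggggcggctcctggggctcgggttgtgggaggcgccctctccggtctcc
Grik3: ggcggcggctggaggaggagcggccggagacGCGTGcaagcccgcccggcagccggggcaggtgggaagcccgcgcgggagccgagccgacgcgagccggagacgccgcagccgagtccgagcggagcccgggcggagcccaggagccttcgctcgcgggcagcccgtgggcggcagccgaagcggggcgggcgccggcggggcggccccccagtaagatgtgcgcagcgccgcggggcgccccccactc
The search for GCGTG and ACGTG on both strands of the 250 bases before the start listed for each gene in the promoter table was added after the expression values were seen. GCGTG was in 27.2% of 27457 promoters and ACGTG in 16.9%, and at least 1 of them was in 37.9% of promoters and in 11 of the 30 receptor genes with a promoter in the table (36.7%). Of the 4 genes that fell in hypoxic neuroblasts, 2 held GCGTG and 0 held ACGTG. The palindrome CACGTG holds ACGTG on both strands, and a promoter that holds it was counted once. A match describes letters only, and all 250 bases of the windows of Grik5 and Grin2c lie inside the annotated genes and are not printed.

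Of the NMDA family, Grin2c measured 7.93, 8.06, 7.71 and 8.09 in normoxic glomus cells and 6.97, 6.21, 6.88 and 6.58 in normoxic neuroblasts. After hypoxia it measured 6.18, 6.74, 6.94 and 6.99 in glomus cells and 6.19, 5.79, 5.86 and 5.94 in neuroblasts. The 4 normoxic glomus cell values lay above all other 12, and within each population the normoxic values lay above the hypoxic ones. Grin2c was lower in normoxic neuroblasts than in normoxic glomus cells (difference -1.29 ± 0.20, 2.44-fold, adjusted p = 0.00153). It fell by 1.24 ± 0.20 with hypoxia in glomus cells (2.35-fold, adjusted p = 0.000444) and by 0.72 ± 0.20 in neuroblasts (1.64-fold, adjusted p = 0.0141). The interaction was 0.52 ± 0.29 (adjusted p = 0.797), so that a difference between these falls was not shown. After quantile normalization the fall in neuroblasts did not pass (-0.51, adjusted p = 0.11).

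Grin1, the subunit that every NMDA receptor contains, had means of 6.13 ± 0.31 in normoxic glomus cells, 5.88 ± 0.52 in normoxic neuroblasts and, after hypoxia, 5.52 ± 0.53 in glomus cells and 5.24 ± 0.46 in neuroblasts. Its hypoxia differences of -0.61 ± 0.30 in glomus cells (adjusted p = 0.174) and -0.64 ± 0.30 in neuroblasts (adjusted p = 0.104) had the direction of Grin2c but did not pass. Grin2a, Grin2b, Grin2d, Grin3a and Grin3b passed in no comparison, and their means lay between 3.80 and 4.62.

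Of the 16 GABA-A genes, none passed between the populations in normoxia or in hypoxia in limma's test, with 0 and 2 at an unadjusted p under 0.05. Gabra4, an alpha subunit, and Gabrp, the pi subunit known from reproductive tissue, passed in hypoxic neuroblasts. Gabra4 measured 4.01, 4.13, 3.62 and 4.07 in normoxic glomus cells, 4.09, 4.02, 3.48 and 4.06 in normoxic neuroblasts and, after hypoxia, 4.48, 4.43, 4.44 and 4.13 in glomus cells and 4.99, 4.23, 4.39 and 4.43 in neuroblasts. The hypoxic neuroblast values lay above the normoxic ones, by 0.60 ± 0.20 in the mean (1.51-fold, adjusted p = 0.028), and 0.35 of this was above the median shift of all probes. Gabrp measured 4.00, 4.02, 3.86 and 3.79 in normoxic glomus cells, 4.08, 3.94, 3.65 and 3.75 in normoxic neuroblasts and, after hypoxia, 4.02, 4.24, 4.08 and 4.19 in glomus cells and 4.69, 4.20, 4.28 and 4.04 in neuroblasts. Its neuroblast groups overlapped, with a difference of 0.45 ± 0.16 (1.36-fold, adjusted p = 0.0435). Both rises were lost when arrays were centred (Gabra4 0.32, adjusted p = 0.213 and Gabrp 0.17, adjusted p = 0.434), after quantile normalization (adjusted p = 0.262 and 0.58) and without hypoxic neuroblast replicate 1, the array with their highest values (0.44, adjusted p = 0.0845 and 0.32, adjusted p = 0.121). Both calls were also lost with array weights (adjusted p = 0.0786 and 0.091). The same held with only the neuroblast arrays in the fit (adjusted p = 0.0862 and 0.132). Gabra4 also lost its call without normoxic neuroblast replicate 3 (0.45, adjusted p = 0.1), and Gabrp lost its call in 12 of the 16 fits without 1 array.

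Gabre, which encodes the epsilon subunit, measured 4.77, 5.01, 5.08 and 5.04 in normoxic glomus cells and 4.89, 4.51, 4.88 and 3.98 in normoxic neuroblasts. After hypoxia it measured 5.16, 5.97, 5.50 and 5.50 in glomus cells and 4.47, 4.07, 4.72 and 4.73 in neuroblasts. All 4 hypoxic glomus cell values lay above the 12 others, and Gabre passed in none of the 5 comparisons. The population difference in hypoxia was -1.04 ± 0.22 (2.05-fold, adjusted p = 0.064), and the hypoxia difference in glomus cells was 0.56 ± 0.22 (adjusted p = 0.0939). Gabra3 was the most scattered of these genes, with means of 5.38 ± 1.15 in hypoxic neuroblasts, 4.28 ± 0.94 and 4.20 ± 0.34 in normoxic glomus cells and neuroblasts, and 3.97 ± 0.38 in hypoxic glomus cells. Its difference of 1.42 ± 0.48 between the hypoxic populations did not pass (adjusted p = 0.282). The remaining 12 GABA-A genes (Gabra2, Gabra5, Gabra6, Gabrb1, Gabrb2, Gabrd, Gabrg1, Gabrg3, Gabrq, Gabrr1, Gabrr2 and Gabrr3) passed in no comparison, with group means from 2.06 for Gabrg1 to 5.01 for Gabrd.

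Of the AMPA genes, Gria4 measured 3.61, 3.37, 3.24 and 3.21 in normoxic glomus cells, 3.45, 3.74, 3.25 and 4.01 in normoxic neuroblasts and, after hypoxia, 3.40, 3.29, 3.46 and 3.06 in glomus cells and 3.36, 3.01, 3.38 and 3.54 in neuroblasts. All groups overlapped, and neither Gria4 nor Gria3 passed in any comparison. The hypoxia difference of Gria4 in neuroblasts was -0.29 ± 0.18 (adjusted p = 0.221), and it passed as a fall when arrays were centred and after quantile normalization. Grid2ip had means of 4.32 to 4.66 and passed in no comparison.

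Of the metabotropic genes, Grm5, which couples to phospholipase C, measured 4.03, 3.84, 3.84 and 3.91 in normoxic glomus cells, 3.91, 3.90, 3.53 and 3.40 in normoxic neuroblasts and, after hypoxia, 4.33, 3.91, 4.25 and 4.04 in glomus cells and 4.49, 4.24, 4.33 and 3.94 in neuroblasts. The hypoxic neuroblast values lay above the normoxic ones, by 0.57 ± 0.17 in the mean (1.48-fold, adjusted p = 0.0184). The difference passed without hypoxic neuroblast replicate 1 (0.48 ± 0.17, adjusted p = 0.0459) but not without normoxic neuroblast replicate 3 (0.51, adjusted p = 0.0546) or 4 (0.47, adjusted p = 0.0649). It also did not pass when arrays were centred (0.28, adjusted p = 0.195), after quantile normalization (0.22, adjusted p = 0.292) or with only the neuroblast arrays in the fit (adjusted p = 0.0734). Grm6, known from retinal bipolar cells, measured 4.37, 4.25, 3.95 and 4.16 in normoxic glomus cells, 4.21, 4.37, 3.95 and 4.22 in normoxic neuroblasts and, after hypoxia, 4.29, 4.50, 4.26 and 4.09 in glomus cells and 4.30, 4.60, 4.50 and 4.49 in neuroblasts. Its groups overlapped, and Grm2, Grm3, Grm6 and Grm8 passed in no comparison. Less the median shift of all probes, the hypoxia differences of Grm2 and Grm3 were -0.13 and -0.17 in glomus cells and -0.11 and -0.11 in neuroblasts, those of Grm6 were -0.07 and 0.04, and those of Grm8 were 0.15 and 0.19. All 5 metabotropic genes were below the array median on every array.

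**Figure D4:**
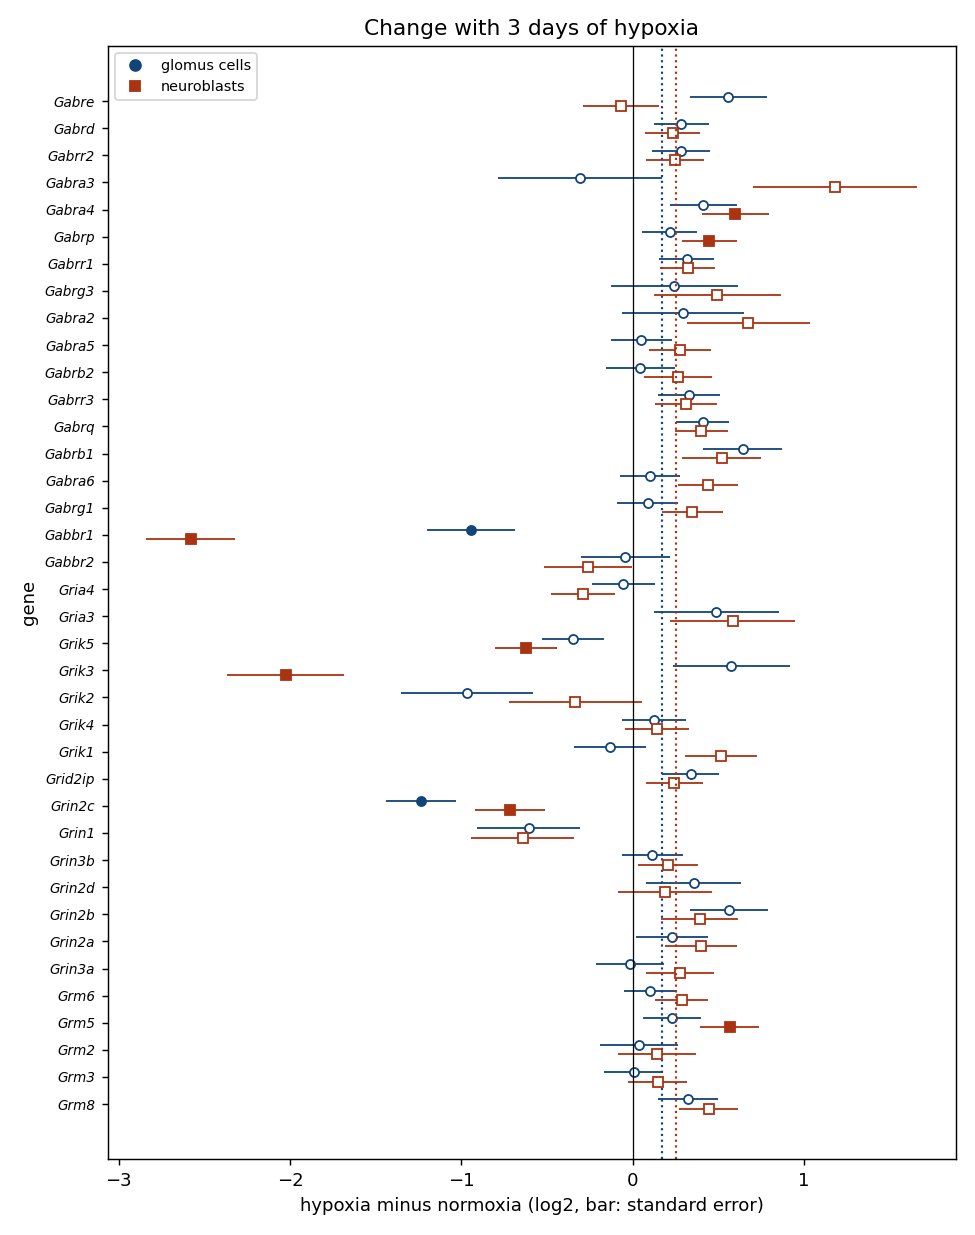
Hypoxic minus normoxic log2 difference ± SE for each of the 38 genes in glomus cells (circles) and neuroblasts (squares), filled where the adjusted p is under 0.05, with dotted lines at the median of all probes (0.17 and 0.25). The falls of Gabbr1 and Grik3 in neuroblasts reach furthest from 0, and most other genes lie near the dotted lines.

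The markers of cell types moved with some of these results. The summed level of the 12 neuroblast and immature neuron markers was 11.01 to 11.14 in normoxic glomus cells, 12.11 to 12.70 in normoxic neuroblasts and, after hypoxia, 10.45 to 10.75 in glomus cells and 10.70 to 11.43 in neuroblasts (log2 of the summed signal). It was highest in normoxic neuroblasts, as were Gabbr1 and Grik3, and 9 of the 12 markers fell in hypoxic neuroblasts (median difference -1.07). The 10 glomus cell markers summed to 14.61 to 14.77 and 13.98 to 14.21 in normoxic glomus cells and neuroblasts, and to 14.10 to 14.39 and 12.92 to 14.05 after hypoxia. They were highest in normoxic glomus cells, as was Grin2c, and 5 of the 10 were lower in normoxic neuroblasts. With hypoxia 4 of the 10 fell and 1 rose in glomus cells (median difference -0.555). In neuroblasts, where Grin2c also fell, 4 of the 10 fell and 3 rose (median difference 0.16).

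The 10 macrophage markers summed to 8.45 to 10.66 and 9.81 to 10.44 in normoxic and hypoxic glomus cells, and to 7.46 to 8.04 and 7.95 to 8.56 in the neuroblasts. The 7 endothelial markers measured summed to 8.90 to 9.70 and 10.37 to 10.77 in the glomus cells, and to 6.99 to 7.64 and 8.19 to 8.69 in the neuroblasts. Both lists were higher in the HNK-1 negative sorts, and the endothelial sum, like Gabre, was highest in hypoxic glomus cells. The 7 type II and glial markers summed to 8.55 to 8.95 and 9.07 to 9.56 in normoxic glomus cells and neuroblasts, and to 8.61 to 9.12 and 9.78 to 10.49 after hypoxia, with 2 of 7 higher in normoxic neuroblasts. The 7 fibroblast markers summed to 8.11 to 9.90 and 8.93 to 12.09 in normoxic glomus cells and neuroblasts, and to 8.34 to 9.22 and 8.37 to 10.31 after hypoxia. Of these, Gsn was higher in normoxic neuroblasts and fell there with hypoxia, as Gabbr1 and Grik3 did. The medians of the list for these differences were 0.99 and -0.82. The 7 pericyte and smooth muscle markers measured summed to 12.72 to 12.88 and 12.40 to 12.59 in normoxia and to 11.70 to 12.03 and 11.30 to 12.03 after hypoxia, with Mcam higher in normoxic neuroblasts. The 6 peripheral neuron markers measured summed to 9.34 to 9.49 and 9.66 to 10.51 in normoxia and to 9.57 to 9.82 and 8.29 to 9.95 after hypoxia, and none differed between the populations in limma's test, with 0 in normoxia and 1 in hypoxia at an unadjusted p under 0.05. The sums follow the brightest markers. For the pericyte and smooth muscle list they fell with hypoxia, while the median differences were 0.22 in glomus cells and 0.08 in neuroblasts. For the peripheral neuron list the median hypoxia differences were 0.35 and 0.235. With hypoxia in glomus cells, 3 macrophage, 2 endothelial, 1 glial and 1 pericyte marker rose, and 1 glial and 1 pericyte marker fell. In neuroblasts 2 endothelial, 2 glial, 1 pericyte and 1 peripheral neuron marker rose, and 1 pericyte marker fell besides Gsn. Of all probes, 18.9% and 32.1% passed in these comparisons, and 1.82% passed between the normoxic populations. None of the markers measured was at 0 in any group, and the part of other cells in the receptor results was not tested.

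Of 9 measured genes that make, move or break down GABA, 1 passed with hypoxia in glomus cells and 3 in neuroblasts, where 18.9% and 32.1% of all probes passed. None differed between the populations in normoxia or hypoxia in limma's test, with 0 and 1 at an unadjusted p under 0.05. Abat, which breaks GABA down, fell with hypoxia by 0.65 ± 0.20 in glomus cells (adjusted p = 0.0321) and by 0.77 ± 0.20 in neuroblasts (adjusted p = 0.00821). The glomus cell call of Abat was lost in 6 of the 16 fits without 1 array (normoxic glomus cell replicate 2, 3 or 4 or hypoxic glomus cell replicate 1, 2 or 4), with adjusted p of 0.0644 to 0.105. In neuroblasts Gad1, which makes GABA, rose by 0.51 ± 0.16 (adjusted p = 0.0246), where the median shift of all probes was 0.25. Its means of 3.74 and 4.25 lay below the array medians of these groups. The amino acid transporter Slc38a1 fell in neuroblasts by 0.85 ± 0.30 (adjusted p = 0.038). Gad1 did not pass without normoxic neuroblast replicate 2 or 3 or hypoxic neuroblast replicate 3 (adjusted p of 0.0644 to 0.0707). Slc38a1 did not pass without normoxic neuroblast replicate 1, 3 or 4 or hypoxic neuroblast replicate 1 or 3 (adjusted p of 0.0646 to 0.127). The median differences were 0.10 and 0.15 over the list and 0.13 and 0.19 over all genes, in glomus cells and neuroblasts. The count in glomus cells was 0 without normoxic glomus cell replicate 3 or 4 or hypoxic glomus cell replicate 1 or 4 and after quantile normalization, 2 without hypoxic neuroblast replicate 1 or 2, and 3 with arrays centred. In neuroblasts it was 1 after quantile normalization and without normoxic neuroblast replicate 3 or hypoxic neuroblast replicate 3.

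Proteins that anchor, carry or act with GABA receptors, and chloride transporters, formed a list of 20, of which 18 were measured. In normoxia 1 of them, Kcnj3, a potassium channel subunit opened by G proteins, was lower in neuroblasts (-1.96 ± 0.33, adjusted p = 0.00253), named after its value was seen. In that comparison 1.82% of all probes passed (0.828% lower in neuroblasts). The count there was 3 without normoxic neuroblast replicate 3 or hypoxic neuroblast replicate 1. With hypoxia 5 fell and none rose in glomus cells, and 7 fell and 1 rose in neuroblasts. The 1 rise lost its call in 10 of the 16 fits without 1 array (adjusted p of 0.0507 to 0.128). In neuroblasts 1 of the 7 falls lost its call in 5 of these fits (adjusted p of 0.0505 to 0.141). Of all probes, 9.5% fell and 9.37% rose in glomus cells, and 13.7% fell and 18.4% rose in neuroblasts. The median differences were -0.22 and -0.15, against 0.13 and 0.19 over all genes. Gphn, the scaffold gephyrin of inhibitory synapses, fell by 0.92 ± 0.26 in glomus cells (adjusted p = 0.0206) and by 1.60 ± 0.26 in neuroblasts (adjusted p = 0.000215). Its glomus cell call was lost in 5 of the 16 fits without 1 array (normoxic glomus cell replicate 2, 3 or 4 or hypoxic glomus cell replicate 1 or 3), with adjusted p of 0.0524 to 0.0766. Trak2, which links cargo to motor proteins, differed by -1.51 ± 0.22 and -1.69 ± 0.22 (adjusted p = 0.000162 and 2.7e-05), and Nlgn2, an adhesion protein of inhibitory synapses, by -1.05 ± 0.18 and -0.89 ± 0.18 (adjusted p = 0.000579 and 0.0013), in the same order. Lhfpl4, which helps to place GABA-A receptors at synapses, fell by 1.32 ± 0.17 in glomus cells (adjusted p = 5.4e-05) and differed by -0.04 ± 0.17 in neuroblasts, with an interaction of 1.27 ± 0.24 (adjusted p = 0.0578). No gene of the list passed between the hypoxic populations or in the interaction, with 2 and 2 at an unadjusted p under 0.05. In the interaction, 1 gene passed without hypoxic glomus cell replicate 1 or hypoxic neuroblast replicate 1.

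Of 15 measured genes of glutamate synthesis and transport, 3 fell in hypoxic glomus cells, and 4 fell and 1 rose in hypoxic neuroblasts, where 18.9% and 32.1% of all probes passed. The median differences were 0.08 and 0.30, against 0.13 and 0.19 over all genes. Slc38a2, a glutamine carrier, fell by 2.05 ± 0.32 in glomus cells (adjusted p = 0.000262) and by 2.33 ± 0.32 in neuroblasts (adjusted p = 4e-05). Glud1, which interconverts glutamate and ketoglutarate, differed by -0.92 ± 0.18 and -1.53 ± 0.18 (adjusted p = 0.00163 and 1.1e-05). In neuroblasts the neutral amino acid carrier Slc1a4 fell by 1.18 ± 0.17 (adjusted p = 8.3e-05). The glutamate carrier Slc1a6 rose there by 0.79 ± 0.19 (adjusted p = 0.00457), where the median shift of all probes was 0.25. Between the populations none of the 15 passed in limma's test in normoxia or in hypoxia, with 1 and 1 at an unadjusted p under 0.05, and none passed in the interaction, with 2. The neuroblast count was 8 without hypoxic neuroblast replicate 4, the glomus cell count was 5 without hypoxic neuroblast replicate 1, and the normoxic population count was 1 without normoxic neuroblast replicate 2 or hypoxic neuroblast replicate 1.

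Between the normoxic populations, where 1.82% of all probes passed (0.996% higher in neuroblasts), 1 of 30 measured partners and scaffolds of glutamate receptors differed. This was Dlg2, a scaffold of the postsynaptic density, which was 1.15 ± 0.23 higher in neuroblasts (adjusted p = 0.00951) and was the gene of this list that changed furthest with hypoxia there. It fell by 1.88 ± 0.23 in neuroblasts (adjusted p = 1.3e-05) and by 0.92 ± 0.23 in glomus cells (adjusted p = 0.00833). Its relative Dlg4 differed by -1.27 ± 0.25 and -1.51 ± 0.25 (adjusted p = 0.000963 and 0.000403), in the same order. In neuroblasts Dlg1 fell by 1.00 ± 0.19 (adjusted p = 0.000851), and Adarb1, an enzyme that edits glutamate receptor transcripts, fell by 1.10 ± 0.21 (adjusted p = 0.000925). In all, 3 of the 30 fell and 2 rose in hypoxic glomus cells, and 5 fell and 2 rose in hypoxic neuroblasts. The median differences were -0.05 and -0.08, against 0.13 and 0.19 over all genes. The shares of all probes that passed were again 18.9% and 32.1%. The glomus cell count was 8 without hypoxic neuroblast replicate 1, and the normoxic population count was 2 without normoxic glomus cell replicate 1 or hypoxic neuroblast replicate 1. None of the 30 passed between the hypoxic populations or in the interaction, with 4 and 3 at an unadjusted p under 0.05.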

How the data were processed

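The 16 samples formed 4 groups of 4 arrays, from the sample titles. The authors' deposited table holds log2 values of 30429 probes, from 0.87 to 13.33. Per the submitters' processing notes the authors used Transcriptome Analysis Console. Its version, the background correction, the normalization and the log base are not given in these sources, and log2 was inferred from the range and the tool.

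The probe annotation names 1 gene for 18511 probes, several for 575 and none for 11343, and 1 probe that names a receptor gene together with another gene was left out. All 38 gene IDs were found in RefSeq with the same symbol. Each probe was fitted over all arrays by a linear model in limma 3.58.1 (lmFit, then eBayes with no trend) under R 4.3.3, with a mean for each of the 4 groups and 12 residual degrees of freedom, and the code was checked on simulated data. Tests were two-sided. Within each of 5 comparisons, Benjamini-Hochberg adjustment ran over every probe. A gene passed at an adjusted p under 0.05. Differences are given ± limma's standard error and group means ± SD. The number of arrays limits the precision. Comparisons of the same groups share samples.

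Values on every array were given for the genes that passed in any comparison, Gabbr1, Gabbr2 and the gene of the highest mean in each family, and in each of 4 lists of partner genes up to 4 of the genes that passed were named, by the smallest adjusted p. The members and lists were chosen with earlier results of these data known. Alternatives were centring, quantile normalization, filters on dim probes, array weights, a trend in the variance with robust fitting, only the groups compared, the replicate number as a block, the mean of a gene's probes, stricter thresholds and leaving out each array. Those for the partner lists were added after seeing the data. The plots were made in Python 3.11.15 with matplotlib 3.10.9.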

Additional observations from a re-analysis of the deposited data

Results flagged for a closer look

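Of 48 sets of 4 values (12 genes in 4 groups), 3 held a value far from the other 3 of its group, and chance gives about 1 in 20. Grik3 measured 4.75 in hypoxic neuroblast replicate 1, against 5.61 to 5.72 in the other replicates. Gabra4 measured 3.48 in normoxic neuroblast replicate 3, against 4.02 to 4.09 in the others. Gabra4 also measured 4.13 in hypoxic glomus cell replicate 4, against 4.43 to 4.48 in the others.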

How the results depend on the processing

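No called difference of a single gene changed sign under any alternative run, and the calls of Gabbr1, Grik3 and Grin2c between the normoxic populations were kept in all of them. The thresholds, probe filters, variance trend, replicate block, mean of probes and fits with only the groups compared could not change a difference. Neither could leaving out an array of a group outside the comparison. The number of receptor genes that passed in normoxia was 3 to 4 without 1 array. Between the hypoxic populations it was 0 with arrays centred, with array weights, with only the groups compared and at an adjusted p under 0.01, 2 after quantile normalization and with the dimmer 50% of probes left out, and 0 to 1 without 1 array. For hypoxia in glomus cells it was 1 after quantile normalization, at an adjusted p under 0.01 and at a difference of at least 1, 5 with only the groups compared, 9 with array weights and 1 to 5 without 1 array. For hypoxia in neuroblasts it was 3 after quantile normalization, 4 with the dimmer 50% left out or only the groups compared, 2 at an adjusted p under 0.01 or a difference of at least 1, and 4 to 10 without 1 array. In the interaction it was 1 with the dimmest 25% or the dimmer 50% left out or array weights, and 0 to 1 without 1 array. The filters left 25 and 9 of the 38 genes. The shares above the median were 14.47%, 17.76%, 15.13% and 20.39% against the median of 1 probe per gene, in the order of the groups, and 25.44 to 27.19%, 25.44 to 28.07%, 23.68% and 25.44 to 29.82% without 1 array.

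Of the genes of GABA synthesis and breakdown, the number that passed in hypoxic glomus cells was 3 centred, 0 after quantile normalization, at the stricter p and at the fold threshold, 2 with either filter, array weights or only the groups compared, and 0 to 2 without 1 array. In hypoxic neuroblasts it was 1 after quantile normalization, with array weights, only the groups compared or the stricter p, 0 at the fold threshold, and 1 to 3 without 1 array. Of the GABA receptor partners, in normoxia it was 2 with either filter or the intensity trend, 3 with array weights and 1 to 3 without 1 array; between hypoxic populations it was 1 after quantile normalization or with the replicate block. In hypoxic glomus cells it was 3 at the fold threshold and 4 to 6 without 1 array, in hypoxic neuroblasts 6 to 9, and in the interaction 1 after quantile normalization or with array weights and 0 to 1 without 1 array. Of the genes of glutamate synthesis and transport, in normoxia it was 1 with the dimmer 50% left out or array weights and 0 to 1 without 1 array. In hypoxic glomus cells it was 6 with array weights, 1 at the fold threshold and 3 to 5 without 1 array, and in hypoxic neuroblasts 3 after quantile normalization or at the fold threshold and 4 to 8 without 1 array. Of the glutamate receptor partners, in normoxia it was 3 with array weights, 2 with only the groups compared and 1 to 2 without 1 array. In hypoxic glomus cells it was 8 centred, 12 with array weights, 9 with only the groups compared, 1 at the fold threshold and 4 to 8 without 1 array, and in hypoxic neuroblasts 4 at the fold threshold and 5 to 9 without 1 array. The cause of these changes was not tested.

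Same-numbered samples of different groups were not shown to be paired: over 24 pairs the correlation of their deviations was -0.10 to 0.20, and 6 of 16 arrays correlated best with their own number. With the replicate number as a block, 3 and 1 receptor genes passed between the normoxic and the hypoxic populations, 3 with hypoxia in glomus cells, 8 in neuroblasts and 0 in the interaction.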
